A study of Mus musculus with 30 samples.

Results

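The 10 genes described here encode chaperones and folding enzymes of the endoplasmic reticulum: Hspa5, Hsp90b1, Calr, Canx, Pdia3, Pdia4, Pdia6, Dnajb11, Sdf2l1 and Hyou1. They were taken by symbol from a table of 48709 genes, of which 12946 passed a filter on level, and all 10 passed it. The 10 genes, and the gene lists compared with them below, were chosen with earlier results of these data known. Their shares beside those of all genes are therefore descriptions and not independent support. The table covers 30 RNA-seq libraries of C2C12 cells, a mouse myoblast line that fuses into myotubes when serum is withdrawn. Hexavalent chromium, as potassium chromate, was added to the horse serum differentiation medium at 0, 2 or 5 µM. Libraries were made from cells on day 0, which had 0 µM, and on days 1, 2 and 4 at each dose, with 3 biological replicates in each of the 10 groups. All groups are the same cell line, and the labels give no genetic change. Values are CPM, reads of a gene relative to the size of the library, rescaled by the authors (scaled CPM), at 18462092 to 26947109 reads in a library. The muscle regulator Myod1 and the muscle filament gene Des were detected in every library. A pair of day 1 libraries, replicate 1 at 2 µM and replicate 3 at 5 µM, also held transcripts of other tissues, and the values of day 1 without them follow the dose comparisons of that day.

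The endoplasmic reticulum is where secreted and membrane proteins fold. Hspa5 (BiP) is its HSP70 and holds unfolded chains in an ATP cycle, Hsp90b1 (GRP94) is its HSP90, calreticulin and calnexin bind chains through their sugars, and protein disulfide isomerases form and rearrange disulfide bonds. When unfolded protein builds up, the sensors IRE1, PERK and ATF6 start the unfolded protein response, in which cleaved ATF6 and spliced XBP1 raise transcription of most of these chaperones. Differentiating myoblasts make large amounts of new membrane and matrix protein, and this pathway is known to accompany myoblast differentiation.

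At 5 µM most of the chaperone transcripts were lower than at 0 µM on every day sampled. Against the same-day cells at 0 µM, 9 of the 10 were lower on day 1, 7 on day 2 and 7 on day 4 (adjusted p below 0.05, limma), and none was higher. Over all genes tested, 9.41%, 13.4% and 28.6% were called lower on these days. The share of all reads that fell on the 10 genes was 0.561% ± 0.015 (SD, n = 3) on day 0. On day 1 it was 0.474% ± 0.0063 at 0 µM, 0.386% ± 0.0067 at 2 µM and 0.297% ± 0.011 at 5 µM. On day 2 the corresponding shares were 0.485% ± 0.015, 0.492% ± 0.0073 and 0.404% ± 0.021, and on day 4 they were 0.387% ± 0.0093, 0.36% ± 0.0096 and 0.312% ± 0.0014. The 3 doses were thus separate on day 1, and on day 2 the means at 0 and 2 µM differed by less than the spread at 0 µM. In bulk RNA, fewer cells that express a gene and less of its RNA per cell cannot be told apart.

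**Figure D1:**
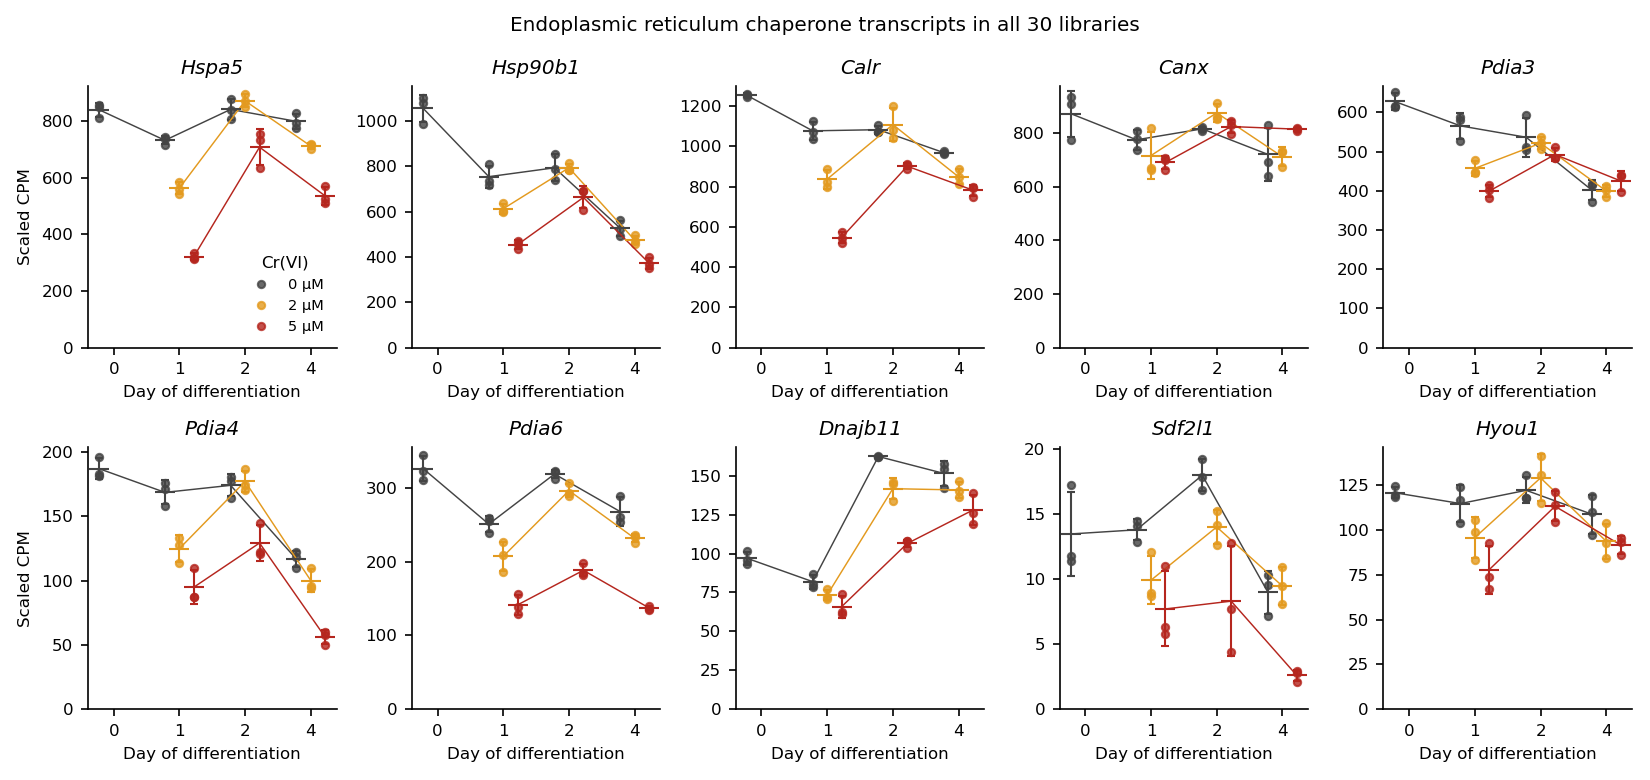
Level of each chaperone transcript in scaled CPM (vertical axes, linear, from 0) against day of differentiation, by chromate dose. Points are single libraries, horizontal marks the mean and bars the SD of 3 libraries. At 5 µM on day 1 the Hspa5 libraries lie between 314.2 and 334.6, below all 3 at 0 µM (716.5 to 742.7), while in the Canx panel the libraries at 0 and 5 µM overlap on days 2 and 4.

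The promoters are shown because 9 of the 10 genes were lower together at 5 µM on day 1 and because many genes of this family share a well-known control site. This site, the endoplasmic reticulum stress element (ERSE), is CCAAT, then 9 bases of any kind, then CCACG. Its CCAAT end is bound by the NF-Y complex and its CCACG end by ATF6 or XBP1. RefSeq promoters on build GRCm38.p6, from 250 bases before to 50 bases after the transcription start, were found for 9 of the 10 genes by symbol. Hyou1 had no entry. Searched on both strands, the exact element was present in 5 of the 9 promoters, against 39 of all 32851 promoters (0.119%). Because the site was already known from this family, its presence here is a description and not a test. Capitals mark the CCAAT and CCACG ends below, and each sequence is written 5′ to 3′ on the strand that carries the match.
Hspa5: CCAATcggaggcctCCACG
Calr: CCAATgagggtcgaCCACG
Hsp90b1, farther from the start: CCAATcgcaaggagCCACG
Hsp90b1, nearer the start: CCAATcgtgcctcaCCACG
Canx: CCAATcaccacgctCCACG
Pdia6: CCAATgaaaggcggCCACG

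Counted from the transcription start, the Hspa5 element spans positions -65 to -47 (chr2:34772025-34772043, plus strand) and the Pdia6 element -98 to -80 (chr12:17266491-17266509, plus strand). The Canx element spans -145 to -127 (chr11:50325800-50325818, minus strand). Hsp90b1 carries 1 copy on its own strand at -212 to -194 (chr10:86705638-86705656, minus strand) and 1 on the other strand at -107 to -89 (chr10:86705533-86705551, plus strand). The Calr element, at -162 to -144 (chr8:84847075-84847093, plus strand), also lies on the strand opposite to the gene. All 6 lie upstream of the RefSeq start. Pdia3 and Pdia4 differed from the element in 1 of its 10 fixed letters, and Dnajb11 and Sdf2l1 in 2. With at most 1 letter different the count was 7 of 9, against 1.5% of all promoters. That count of near matches was added after the sequences had been seen.

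Dnajb11 holds the related element ERSE-II (ATTGG, 1 base of any kind, then CCACG) in its transcribed part at positions 8 to 18 (chr16:22857852-22857862, plus strand), and 0.0365% of all promoters hold it. It is shown because it is the only exact match to either element among the genes without an ERSE.
Dnajb11: ATTGGcCCACG

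The longer stretches below set the gene whose transcript fell most on day 1 beside the gene whose fall did not pass the test on any day, and beside the gene whose transcript fell most on day 4. They run from -190 to -1 for Hspa5 (chr2:34771900-34772089, plus strand) and Sdf2l1 (chr16:17132384-17132573, minus strand), and from -190 to -81 for Canx (chr11:50325754-50325863, minus strand). Capitals mark CCAAT on either strand (ATTGG is its reverse) and the CCACG end of the ERSE.
Hspa5: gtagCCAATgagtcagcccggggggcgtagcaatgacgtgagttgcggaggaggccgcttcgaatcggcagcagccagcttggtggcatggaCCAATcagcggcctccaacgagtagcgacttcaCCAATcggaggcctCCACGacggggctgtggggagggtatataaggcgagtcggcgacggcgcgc
Canx: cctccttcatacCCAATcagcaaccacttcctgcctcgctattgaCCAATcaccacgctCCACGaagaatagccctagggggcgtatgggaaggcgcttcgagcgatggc
Sdf2l1: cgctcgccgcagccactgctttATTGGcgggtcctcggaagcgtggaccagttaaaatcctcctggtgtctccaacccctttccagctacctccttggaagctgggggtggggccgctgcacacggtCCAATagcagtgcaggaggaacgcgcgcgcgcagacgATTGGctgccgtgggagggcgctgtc

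CCAAT was present in all 9 promoters, against 37.4% of all promoters, and it forms an end of every ERSE and, reversed, of ERSE-II. The XBP1-type element TGACGTGG was in 0 of the 9 (0.676% of all promoters) and the ATF4-type element TGATGCAAT in 0 of the 9 (0.192%). A match is a description of letters and not evidence of binding. Whether these elements had a part in the chaperone differences was not tested. Hspa5 and Calr have an exact ERSE and at 5 µM had the lowest day 1 levels relative to 0 µM, 43.9% and 50.8%. Canx also has an exact ERSE and did not pass the test at 5 µM on any day. Sdf2l1 and Pdia4 have none and had the lowest day 4 levels relative to 0 µM, 28.8% and 47.9%. Pdia6, which has an exact ERSE, was next at 51.2%. The RefSeq start used for Pdia4 is the only one of the 9 that does not lie in a GENCODE transcript, and its lack of the element holds for the window at that start.

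**Figure D2:**
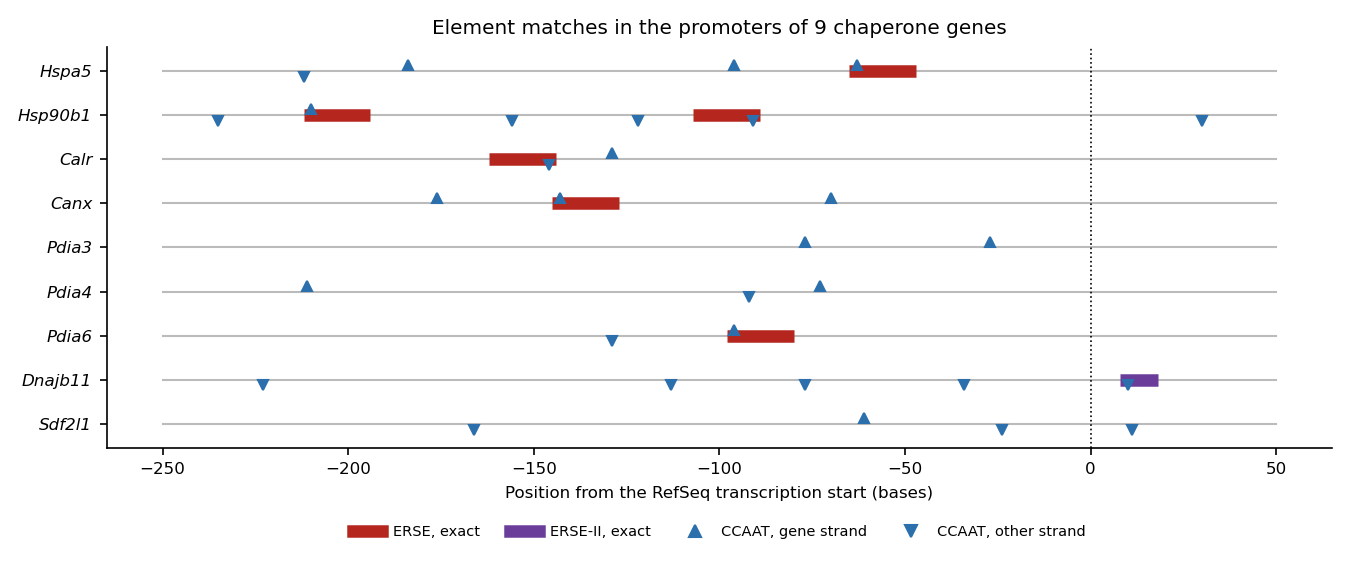
Exact matches to the ERSE (red), ERSE-II (purple) and CCAAT (blue triangles, pointing up for the strand of the gene and down for the other) in 9 promoters, against the distance in bases from the RefSeq transcription start (dotted line). The 6 ERSE copies in 5 genes all lie before the start, and Dnajb11 alone has ERSE-II, after the start.

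Of the same-day comparisons of dose, 5 against 0 µM on day 1 had the most calls among the 10 genes. All 3 replicates at 5 µM lay below all 3 at 0 µM for each of the 10 genes, a separation seen for 16.0% of all genes tested. The 9 genes that passed the test were all lower, where 9.41% of all genes tested were called lower and 4.29% higher. The median log2 change of the 10 was -0.77, against -0.0075 over all genes. Log2 changes are differences on the log2(scaled CPM + 1) scale and come from limma with Benjamini-Hochberg adjustment over all 12946 genes.

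Hspa5, the HSP70 of the compartment, was measured at 742.7, 738.2 and 716.5 scaled CPM at 0 µM on day 1 and at 334.6, 314.2 and 316.2 at 5 µM. The groups were far apart, and the spread within each was small. Hspa5 fell by 1.19 ± 0.0684 on the log2 scale (SE, adjusted p = 3.1e-15), to 43.9% of the 0 µM level. No other group in the series had so little Hspa5 transcript. Hsp90b1, the HSP90 of the compartment, stood at 737.1, 717.9 and 810.0 at 0 µM and at 433.9, 459.3 and 472.7 at 5 µM, with no overlap. It fell by 0.73 ± 0.0756 (adjusted p = 6.5e-09), to 60.3%.

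The helpers of Hspa5 fell less steeply or less evenly. Dnajb11 (ERdj3), a J-domain protein that hands clients to Hspa5, stood at 80.61, 78.29 and 86.93 at 0 µM and at 61.24, 74.00 and 62.31 at 5 µM. The highest 5 µM library came close to the lowest 0 µM one, and the fall was 0.32 (SE 0.0822, adjusted p = 0.0076). The call was lost without replicate 3 at 0 µM (adjusted p = 0.054) or replicate 1 at 5 µM (adjusted p = 0.05 after rounding, not below the threshold), and when the fit held only these 2 groups (0.089). Hyou1 (GRP170), which exchanges the nucleotide of Hspa5, stood at 103.7 to 123.8 at 0 µM and at 67.04 to 92.92 at 5 µM, and fell by 0.56 ± 0.11 (adjusted p = 3.8e-04).

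Sdf2l1, a partner of Dnajb11 in the lumen, was the least abundant of the 10. It stood at 12.88, 14.45 and 14.08 scaled CPM at 0 µM and at 5.800, 6.300 and 11.03 at 5 µM, where replicate 3 was well above the other 2. Its fall of 0.81 ± 0.257 (adjusted p = 0.03) was lost when any library of these groups other than 5 µM replicate 3 was left out (adjusted p from 0.054 to 0.14) and with edgeR on the recovered reads (0.051).

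The sugar-binding chaperones separated from each other. Calr, soluble in the lumen, stood at 1036, 1070 and 1124 at 0 µM and at 576.5, 542.7 and 519.9 at 5 µM, so that every treated library was far below every control. It fell by 0.98 ± 0.0675 (adjusted p = 3.1e-13), to 50.8%. Canx, its membrane-bound relative, stood at 809.8, 736.6 and 779.2 at 0 µM and at 698.8, 708.7 and 664.2 at 5 µM. The Canx groups lay next to each other without overlap, and the difference of -0.17 (95% interval -0.341 to 0.00845, adjusted p = 0.22) did not pass. Pdia3 (ERp57), the disulfide isomerase that works with both, went from 527.0 to 589.0 at 0 µM to 382.4 to 414.4 at 5 µM and fell by 0.50 ± 0.0729 (adjusted p = 4.7e-06).

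The other 2 disulfide isomerases fell by nearly the same amount. Pdia6 (P5), which binds Hspa5, stood at 238.1, 259.6 and 254.7 at 0 µM and at 156.5, 138.5 and 129.2 at 5 µM. Pdia4 (ERp72) stood at 158.2, 176.3 and 171.5 at 0 µM and at 110.2, 87.33 and 87.14 at 5 µM. Neither gene's groups overlapped, and the falls were 0.83 ± 0.0774 for Pdia6 (adjusted p = 6.9e-10) and 0.83 ± 0.0964 for Pdia4 (adjusted p = 6.4e-08).

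The 2 µM dose gave a smaller fall on day 1. At 2 µM 5 of the 10 genes were lower and none higher, where 1.48% of all genes tested were called lower and 0.518% higher. They were Calr (-0.36, adjusted p = 0.0018), Hspa5 (-0.38, 0.0013), Pdia4 (-0.43, 0.01), Pdia3 (-0.31, 0.018) and Hsp90b1 (-0.30, 0.029). Hspa5 stood at 584.8, 543.5 and 562.1 at 2 µM, between the ranges at 0 and 5 µM and touching neither. Pdia6 lay at the threshold (-0.28, adjusted p = 0.052). It passed with DESeq2 (0.02), plain CPM (0.029), a pseudocount of 4 (0.043), a stricter filter (0.047) or none (0.048), and without 2 µM replicate 3 (0.02). These calls leaned on the spread pooled over all 10 groups: fitted on the 2 groups alone, limma called 0 of 10, with 8 at an unadjusted p below 0.05. Leaving out single libraries gave 2 to 4 calls, among them 3 without 0 µM replicate 2, 2 without 0 µM replicate 3 and 3 without 2 µM replicate 1. Hspa5 and Calr passed in each of these refits. Hsp90b1 lost its call in 5 of 6 of them (adjusted p from 0.054 to 0.18), Pdia3 without 0 µM replicates 2 or 3 or 2 µM replicate 1 (0.092 to 0.11), and Pdia4 without 0 µM replicates 2 or 3 or 2 µM replicate 3 (0.053 to 0.061).

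Set against 2 µM directly, the 5 µM cells on day 1 had 5 genes lower (4.25% of all genes were called lower). These were Hspa5 (-0.81), Calr (-0.61), Pdia6 (-0.55), Hsp90b1 (-0.43) and Pdia4 (-0.40), the last without a call when 5 µM replicate 2 (adjusted p = 0.059) or 3 (0.06) was left out. Mean levels fell in the order 0, 2, 5 µM for all 10 genes on day 1, for 4 on day 2 and for 7 on day 4.

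**Figure D3:**
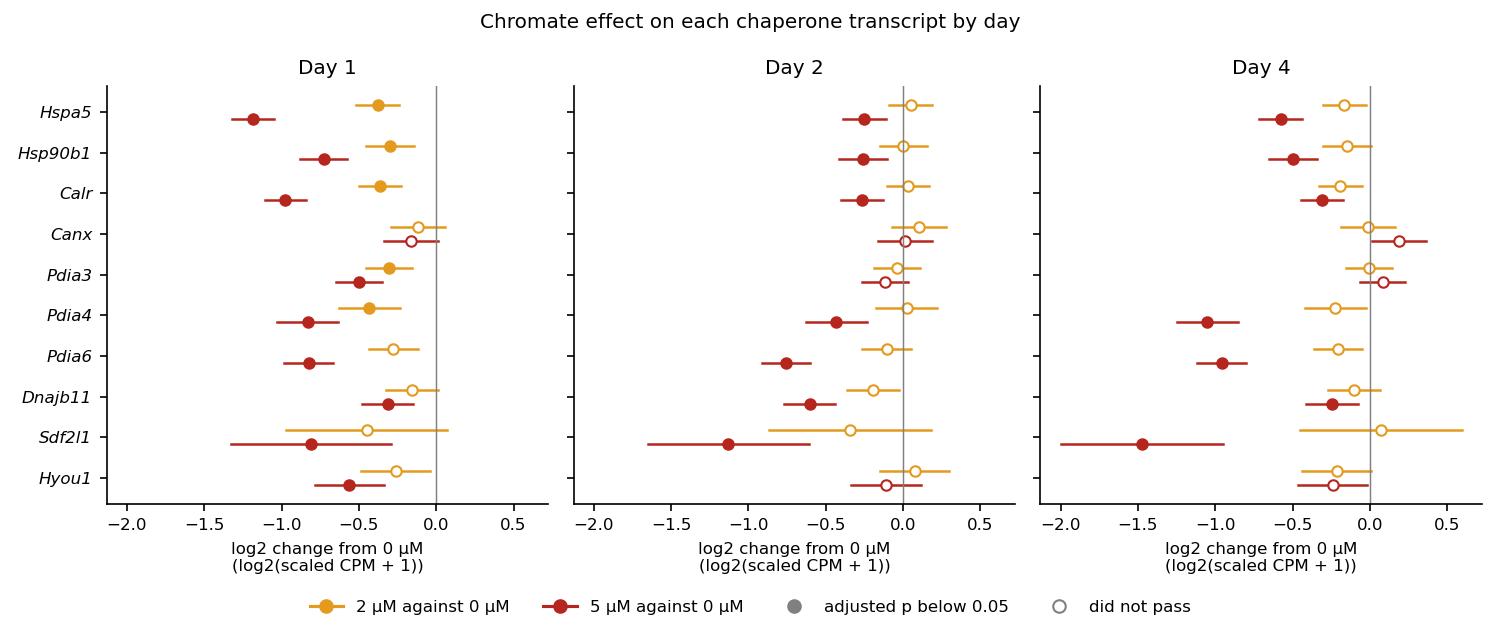
Difference in log2(scaled CPM + 1) from 0 µM on the same day (horizontal axes) for each gene at 2 µM (orange) and 5 µM (red), with 95% intervals. Filled points passed an adjusted p of 0.05 and open points did not. The 5 µM points for Hspa5 run from -1.19 on day 1 to -0.25 on day 2 and -0.58 on day 4, while those for Pdia6 stay between -0.76 and -0.96.

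The day 1 libraries with transcripts of other tissues were checked against marker lists. Replicate 1 at 2 µM had all 6 adipocyte markers searched, summing to 3140 scaled CPM, where no other library had more than 1.26. Replicate 3 at 5 µM had all 5 lung epithelium markers, summing to 348, and all 6 leukocyte markers, summing to 318, where no other library exceeded 0.36 and 0.941. Endothelium markers (Pecam1, Cdh5, Kdr and Tek) summed to 21.4 in replicate 1 at 2 µM and 16.6 in replicate 3 at 5 µM. In no other library did they exceed 1.86. The lung marker Sftpc was at 0 in all 2 µM libraries of day 1. Without both libraries, 9 genes were called lower at 5 µM on day 1, 4 at 2 µM (Pdia3 lost its call, adjusted p = 0.083), and 4 between 5 and 2 µM (Pdia4 lost its call, adjusted p = 0.14). Shares of all genes are not given for this fit. The log2 changes at 5 µM were then -1.17 for Hspa5, -0.94 for Calr, -0.755 for Hsp90b1, -0.77 for Pdia4, -0.76 for Pdia6, -0.69 for Hyou1, -0.50 for Pdia3, -0.28 for Dnajb11 (adjusted p = 0.042), -1.07 for Sdf2l1 and -0.14 for Canx (adjusted p = 0.36). The summed share of reads was 0.378% and 0.391% in the remaining libraries at 2 µM and 0.29% and 0.291% at 5 µM, and means fell in the order 0, 2, 5 µM for all 10 genes.

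The muscle markers Myod1, Myf5, Des, Myog, Tnnt3, Acta1 and Ckm, summed, ranged from 3000 to 3240 at 0 µM, 2080 to 2510 at 2 µM and 1370 to 1640 at 5 µM on day 1. On day 4 they ranged from 12600 to 14300 at 0 µM and from 4850 to 5650 at 5 µM. Myf5, an early myogenic factor, went the other way, from 51.3 to 71.5 at 0 µM to 94.5 to 99.3 at 5 µM on day 1 and from 19.7 to 24.8 to 86.8 to 98.3 on day 4. The part of the differentiation state in the chaperone differences was not tested.

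By day 2 the difference between 5 and 0 µM had narrowed for some chaperones, and little or not at all for others. On that day 7 of the 10 were lower, where 13.4% of all genes tested were called lower and 10.2% higher, and the median log2 change was -0.26. Hspa5 stood at 755.3, 735.0 and 634.5 at 5 µM against 839.0, 879.8 and 806.4 at 0 µM, close but not overlapping. It was lower by a log2 difference of -0.25 (adjusted p = 0.006), which did not pass without 5 µM replicate 3 (-0.175, adjusted p = 0.082). Calr (-0.26, adjusted p = 0.0034) and Hsp90b1 (-0.26, adjusted p = 0.011) had differences of the same size. The Hsp90b1 call was lost without 0 µM replicate 2 (adjusted p = 0.088) or 5 µM replicate 3 (0.09).

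Pdia6 and Dnajb11 stayed well below the 0 µM cells on day 2. Pdia6 was measured at 197.7, 185.0 and 181.9 at 5 µM and at 312.1, 322.7 and 321.5 at 0 µM, a fall of 0.76 ± 0.0774 (adjusted p = 2.0e-09). Dnajb11 stood at 107.9, 108.0 and 103.6 against 163.0, 162.0 and 162.3, and fell by 0.60 ± 0.0822 (adjusted p = 6.4e-07). Both genes had very tight replicates that day, with no overlap between doses. Pdia4 fell by 0.43 (adjusted p = 9.2e-04) and Sdf2l1 by 1.13 (adjusted p = 0.0011), the latter from 16.87 to 19.28 at 0 µM to 4.421, 12.80 and 7.715 at 5 µM.

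Canx (0.015, 95% interval -0.16 to 0.189), Pdia3 (-0.12, -0.268 to 0.0286) and Hyou1 (-0.11, -0.334 to 0.114) did not pass on day 2. At 2 µM no gene of the 10 passed that day (0.247% of all genes were called lower and 0.263% higher). At an unadjusted p below 0.05 limma found 1, and edgeR and DESeq2 called 0. The median difference was 0.014, and the intervals ran from -0.106 to 0.168 for Calr and from -0.0878 to 0.19 for Hspa5. Against the 2 µM cells, 7 genes were lower at 5 µM on day 2 (8.13% of all genes): Sdf2l1 (-0.79), Pdia6 (-0.65), Pdia4 (-0.46), Dnajb11 (-0.41), Hspa5 (-0.30), Calr (-0.30) and Hsp90b1 (-0.26). The Sdf2l1 call there was lost with edgeR (adjusted p = 0.085), with DESeq2 (0.078), and without any library of those groups other than 5 µM replicate 2 (0.057 to 0.35), and the Hsp90b1 call without 2 µM replicate 1 (0.069) or 5 µM replicate 3 (0.13).

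The change of the 5 µM effect from day 1 to day 2 was tested as a difference of differences. It passed for 4 genes, all towards the 0 µM level, where 5.80% of all genes passed in either direction. Hspa5 recovered by 0.93 ± 0.0967 on the log2 scale (adjusted p = 2.1e-08), Calr by 0.71 ± 0.0954 (adjusted p = 2.9e-06), Hsp90b1 by 0.47 ± 0.107 (adjusted p = 0.0044) and Pdia3 by 0.38 ± 0.103 (adjusted p = 0.02). The Pdia3 call was lost in 6 of the refits that left out a library (adjusted p from 0.055 to 0.079). Hyou1 moved the same way without passing (0.45, adjusted p = 0.089), and did pass without 5 µM day 1 replicate 3, the library with lung transcripts (0.584, adjusted p = 0.016). Pdia4 (0.40, adjusted p = 0.084) passed without 5 µM day 1 replicate 1 (0.511, adjusted p = 0.015). Pdia6 showed 0.068 (95% interval -0.155 to 0.291) and Dnajb11 -0.29 (-0.526 to -0.0533, adjusted p = 0.17).

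On day 4 the fall was again deeper for some genes, in cells where much of the transcriptome differed. At 5 µM 7 of the 10 were lower, and 28.6% of all genes tested were called lower and 27.3% higher. The median of the 10 was -0.40, against -0.0095 over all genes. Sdf2l1 stood at 2.071, 2.945 and 2.744 at 5 µM and at 7.135, 10.33 and 9.516 at 0 µM, well apart, and fell by 1.47 ± 0.257 (adjusted p = 9.8e-06), to 28.8%. These Sdf2l1 values rest on few reads, 44 in the lowest library of the series.

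The disulfide isomerases Pdia4 and Pdia6 were next. Pdia4 was measured at 60.21, 57.55 and 50.15 at 5 µM and at 118.4, 109.8 and 122.1 at 0 µM, and fell by 1.05 ± 0.0964 (adjusted p = 3.4e-11). Pdia6 was measured at 136.1, 140.3 and 135.0 against 253.4, 289.5 and 260.5, and fell by 0.96 ± 0.0774 (adjusted p = 1.7e-12). The libraries at 0 and 5 µM were separate for both genes on that day.

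Hspa5 stood at 524.9, 511.9 and 570.4 at 5 µM on day 4 and at 793.2, 828.1 and 777.0 at 0 µM, a fall of 0.58 ± 0.0684 (adjusted p = 9.1e-09). Hsp90b1 fell by 0.50 (adjusted p = 9.8e-07), Calr by 0.31 (adjusted p = 2.2e-04) and Dnajb11 by 0.24 (adjusted p = 0.012). The Dnajb11 call was lost without 5 µM replicate 1 (-0.192, adjusted p = 0.076) and with only these 2 groups in the fit (0.051). Hyou1 just missed (-0.24, adjusted p = 0.062), and passed without 0 µM replicate 1 (-0.318, adjusted p = 0.028), with median-of-ratios scaling (0.029), with edgeR (0.045), with DESeq2 (0.029) and without both libraries with foreign transcripts (0.04).

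Canx and Pdia3 were not low on day 4. Canx stood at 819.4, 816.2 and 809.3 at 5 µM and at 690.6, 639.3 and 832.3 at 0 µM, where replicate 3 was above all treated libraries. The difference of 0.19 (adjusted p = 0.065) did not pass. Without that library it was 0.294 (adjusted p = 0.0044). Pdia3 differed by 0.082 (95% interval -0.0664 to 0.23). At 2 µM on day 4 limma called none of the 10 (3.74% of all genes lower, 5.11% higher), with 4 at an unadjusted p below 0.05, while edgeR on the recovered reads called 1 and DESeq2 3, all lower. Between 5 and 2 µM on day 4, 5 genes were lower (24.8% of all genes): Sdf2l1 (-1.55), Pdia4 (-0.83), Pdia6 (-0.75), Hspa5 (-0.41) and Hsp90b1 (-0.35).

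From day 2 to day 4 the 5 µM effect deepened for Pdia4 (-0.62 ± 0.136, adjusted p = 9.1e-04) and Hspa5 (-0.33 ± 0.0967, adjusted p = 0.013) and shrank for Dnajb11 (0.36 ± 0.116, adjusted p = 0.021). Over all genes 23.7% passed this test in either direction. The Dnajb11 call was lost without 0 µM day 4 replicate 1 (adjusted p = 0.063) or 5 µM day 4 replicate 3 (0.076), and Hsp90b1 passed without 5 µM day 2 replicate 3 (-0.302, adjusted p = 0.046) and with DESeq2 (0.026). The same-day comparisons at 2 and 5 µM share their 0 µM libraries, and the 2 tests of change share the day 2 libraries.

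In cells at 0 µM the chaperones followed more than 1 course over differentiation. From day 0 to day 1, 5 of the 10 fell (22.7% of all genes were called lower): Hsp90b1 (-0.49), Pdia6 (-0.38), Dnajb11 (-0.24), Calr (-0.22) and Hspa5 (-0.20). The Dnajb11 call was lost without day 0 replicate 3 (adjusted p = 0.069) or day 1 replicate 2 (0.064) or with only these 2 groups in the fit (0.056), and the Hspa5 call without day 0 replicate 1 (0.056) or day 1 replicate 3 (0.058). From day 1 to day 2, 3 rose (12.8% of all genes were called higher): Dnajb11 to 198% of its day 1 level (0.98, adjusted p = 2.0e-11), Pdia6 (0.35, adjusted p = 9.4e-04) and Hspa5 (0.20, adjusted p = 0.032). The Hspa5 rise did not pass with plain CPM (0.129, adjusted p = 0.18), with median-of-ratios scaling (0.071), with edgeR (0.055) or without any library of these groups other than day 2 replicate 3 (0.056 to 0.14). The share of lower among all called genes in that comparison was 42.4% with the authors' scaling and 54.3% with plain CPM. From day 2 to day 4, 5 fell (14.1% of all genes were called lower): Sdf2l1 (-0.94), Hsp90b1 (-0.59), Pdia4 (-0.57), Pdia3 (-0.41) and Pdia6 (-0.25), the last lost without day 4 replicate 1 (adjusted p = 0.077). There the corresponding shares were 54.6% and 66%.

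Over the whole course at 0 µM, day 4 against day 0, 6 were lower and 1 higher (29.5% and 30.3% of all genes). With plain CPM 9 were lower and 1 higher, and the share of lower among all called genes was 56.7% in place of 49.3%. Hsp90b1 went from 1103, 988.8 and 1079 on day 0 to 525.3, 495.0 and 562.0 on day 4, which is 49.9% of its starting level. Dnajb11 went the other way, from 96.08, 93.15 and 101.7 to 142.2, 157.6 and 154.7, which is 156% of its starting level. For both genes the first and last day did not overlap. Canx was among the 6 (-0.28, adjusted p = 0.0054), and its call was lost without day 4 replicate 2 (0.061). Hspa5 on day 4 was at 95.2% of day 0 (adjusted p = 0.38).

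Under 5 µM more of the chaperones were called lower by day 1 than at 0 µM, where 5 were. Against the day 0 cells, all 10 genes were lower at 5 µM on day 1 (24.1% of all genes): Hspa5 stood at 38.3%, Hsp90b1 at 43.1%, Pdia6 at 43.4% and Calr at 43.6% of the starting level. Sdf2l1 (-0.76, adjusted p = 0.014) lost its call without day 0 replicate 2 (0.093) or 5 µM replicate 1 (0.078) or 2 (0.062). From day 1 to day 2 at 5 µM, 9 of the 10 rose (12.9% of all genes were called higher), Hspa5 by 1.13 (adjusted p = 4.0e-15), Calr by 0.72 and Dnajb11 by 0.69, while Sdf2l1 differed by 0.042 (adjusted p = 0.94). With plain CPM 7 rose, without Canx (0.138, adjusted p = 0.26) and Pdia3 (0.184, adjusted p = 0.057), and the share of lower among all called genes was 58.7% in place of 38.3%. The Canx rise was also lost without both libraries with foreign transcripts (0.228, adjusted p = 0.081), with median-of-ratios scaling (0.058) and without day 1 replicates 1 or 3 or day 2 replicates 1 or 2 (0.05 after rounding, to 0.099).

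From day 2 to day 4 at 5 µM, 8 fell (20.3% of all genes were called lower), Sdf2l1 by 1.28, Pdia4 by 1.19 and Hsp90b1 by 0.83 among them, and Dnajb11 rose by 0.26 (adjusted p = 0.011; 21.0% of all genes were called higher). With plain CPM the Dnajb11 rise was 0.195 (adjusted p = 0.052), and it was lost without day 4 replicate 3 (0.082). Falls with weaker support were Calr, lost without day 4 replicate 1 (0.066), Pdia3, lost without day 2 or day 4 replicate 1 (0.078 and 0.11), and Hyou1, lost without day 2 replicate 1 or 2 or day 4 replicate 3 (0.065 to 0.12). At the end of the course, day 4 at 5 µM against day 0, 8 were lower and 1 higher (29.7% and 33.5% of all genes). Sdf2l1 was at 19.2%, Pdia4 at 29.9% and Hsp90b1 at 35.3% of the day 0 level, and Dnajb11 at 132%.

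The levels of the 10 transcripts spanned a wide range. Per kilobase of the main transcript (GENCODE vM21), day 0 cells had 573.3 scaled CPM of Calr, 374.2 of Hsp90b1, 228.8 of Hspa5, 226.6 of Pdia3, 203.8 of Canx, 149.9 of Pdia6 and 77.99 of Pdia4. Dnajb11 (38.59), Hyou1 (26.91) and Sdf2l1 (12.17) were the least abundant. The group of 5 µM on day 1 had the lowest mean of the 10 groups for Hspa5, Calr, Canx, Pdia3, Dnajb11 and Hyou1, and the group of 5 µM on day 4 for Hsp90b1, Pdia4, Pdia6 and Sdf2l1. The highest group mean exceeded the lowest 1.27 times for Canx, 1.57 times for Pdia3 and 1.66 times for Hyou1. It did so 2.71 times for Hspa5, 2.83 times for Hsp90b1, 3.34 times for Pdia4 and 6.96 times for Sdf2l1.

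The ordered group means show where neighbours could be told apart. For Hspa5 the 4 highest groups, 2 µM on day 2 (871.9) and 0 µM on days 2 (841.7), 0 (840.2) and 4 (799.4), overlapped each with the next, and then came a gap to 0 µM on day 1 (732.5), which overlapped 2 µM on day 4 (712.1), and that in turn 5 µM on day 2 (708.2). After another gap came 2 µM on day 1 (563.5) and 5 µM on day 4 (535.7), which overlapped, and last 5 µM on day 1 (321.7). The lowest group was clear of its neighbour. For Canx all neighbours in the order overlapped, from 875.7 down to 690.5. For Hsp90b1 the day 0 group (1057) stood clear of the rest and 5 µM on day 4 (372.9) was clear below. Whether reads were counted by strand is not given in the sources used here. Hsp90b1 shares 415 exon bases with 1810014B01Rik on the opposite strand (at most 2.29 scaled CPM in any library) and Pdia6 shares 50 with Atp6v1c2 (at most 38.7).

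Over the 30 libraries Hsp90b1 and Pdia4 had the most similar profiles of any pair (Pearson r = 0.931), followed by Hspa5 and Calr (0.924). Pdia3 was closest to Hsp90b1 (0.877), Pdia6 to Calr (0.867), Sdf2l1 to Pdia4 (0.855), Hyou1 to Hspa5 (0.806), Dnajb11 to Hspa5 (0.651) and Canx to Hyou1 (0.62). Dnajb11 had r near 0 with Hsp90b1 (0.0024), Pdia4 (0.012) and Pdia3 (-0.052). These values describe group means: within groups the median correlation of each gene with the other 9 lay between -0.132 and 0.13. Outside all lists, and among 8696 genes with a mean of at least 10 scaled CPM, the mean profile of the 10 was most closely followed by Magt1 (r = 0.923), a subunit of the oligosaccharyltransferase. Ergic1 (0.867), Sept11 (0.854), Mlec (0.848), Mapkap1 (0.848) and Ccne1 (0.846) came next, all over the same 30 libraries. In the 28 libraries without the foreign transcripts Magt1 had r = 0.92, 4 of the 6 genes were again among the nearest 6, and 9 of the 10 chaperones had the same closest member. Pdia6 was then closest to Sdf2l1 (0.853), and the group with the lowest mean was the same for all 10.

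Related gene lists were compared with the shares of all genes tested at 5 µM on days 1, 2 and 4, which were 9.41%, 13.4% and 28.6% lower and 4.29%, 10.2% and 27.3% higher. Of 20 other folding enzymes and cochaperones of the compartment, 12 were lower at 5 µM on day 1, 7 on day 2 and 9 on day 4, with 0, 0 and 3 higher, and the medians were -0.53, -0.32 and -0.20. As shares of the list, 60%, 35% and 45% were lower. Pdia5, another disulfide isomerase, was lower on all 3 days (-0.91, -0.91 and -1.19), as was Cnpy2 (-0.42, -0.35 and -1.17). Sil1, a nucleotide exchange factor of Hspa5, was measured at 32.05 ± 1.95 at 0 µM and 10.7 ± 4.57 at 5 µM on day 4 and fell by 1.59. Ero1l, the oxidase that recharges the isomerases, rose on day 4 by 1.37, from 28.2 ± 7.42 to 72.9 ± 5.02.

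**Figure D4:**
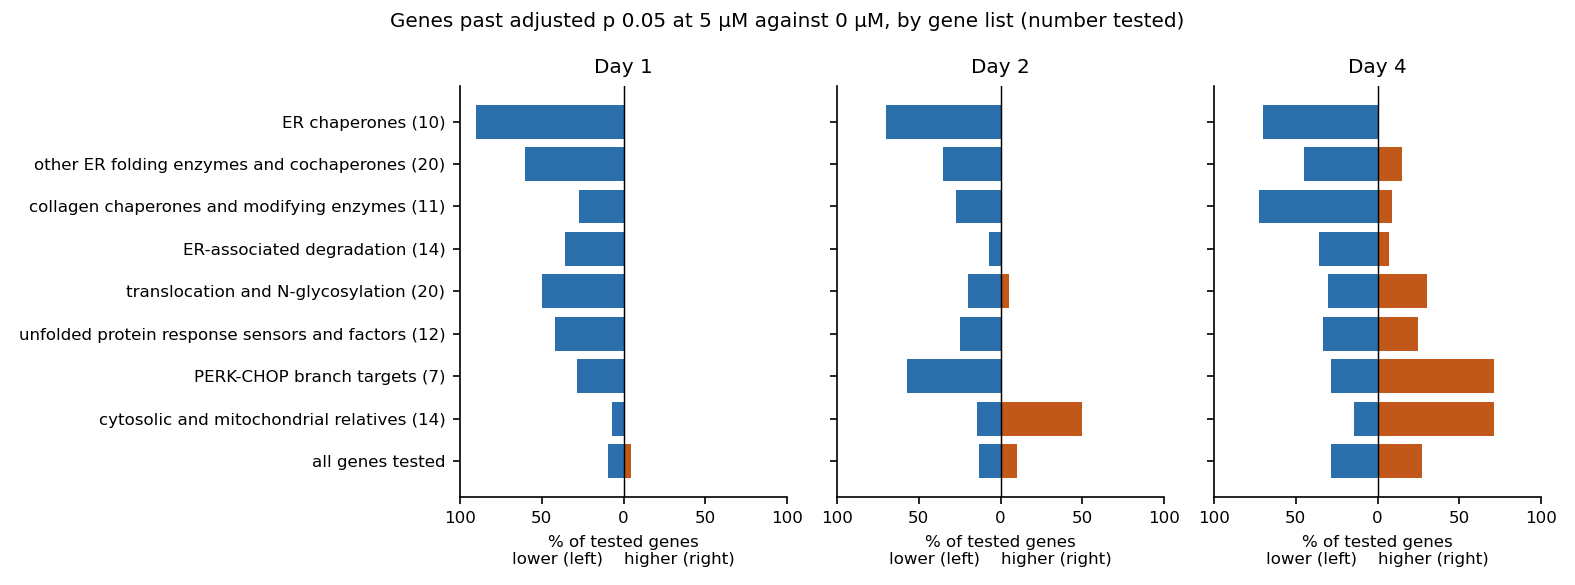
Percent of the genes of each list that were lower (blue, left) or higher (orange, right) at 5 µM against 0 µM at an adjusted p below 0.05, on days 1, 2 and 4, with the number tested in brackets and all genes tested in the bottom bar. The chaperone bars reach 90, 70 and 70 on the left with none on the right, while the bars of the cytosolic relatives lie mostly on the right on days 2 and 4.

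Of 14 tested genes of degradation from the compartment, 5 were lower on day 1, 1 on day 2 and 5 on day 4, with 1 higher on day 4. The lower genes were 35.7%, 7.14% and 35.7% of the list, so that only day 1 was well above the share of all genes. Herpud1, a scaffold of the degradation complex, fell by 0.92 on day 2 and by 0.78 on day 4, Ufd1l by 0.75 on day 4, and Vimp (0.55) and Edem1 (0.48) fell on day 1. Of 20 genes of protein entry and N-glycosylation, 10 were lower on day 1, 4 on day 2 and 6 on day 4, with 0, 1 and 6 higher. On day 1 this was 50% of the list, while on day 4 the 30% lower and 30% higher were close to the shares of all genes. Ssr4, of the translocon-associated complex, fell by 1.75 on day 4 and Srpr, of the signal recognition particle receptor, by 0.76, while Sec62 (0.65) and Rpn1 (0.62) rose. Of 11 collagen chaperones and modifying enzymes, 3, 3 and 8 were lower and 1 was higher, on day 4. Plod2, a collagen lysyl hydroxylase, fell by 1.58, P3h1 by 0.94 and Colgalt1 by 0.75 on day 4. P4ha3 was at 2.75 ± 0.668 at 0 µM and at 0.123 ± 0.107 at 5 µM on day 4 (adjusted p = 6.2e-05), too few reads for a fold.

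The sensors and transcription factors of the response formed the next list. Of 12 sensors and factors, 5 were lower on day 1, 3 on day 2 and 4 on day 4, with 3 higher on day 4. On day 1 this was 41.7% of the list, and on day 4 the 33.3% lower and 25% higher were close to the shares of all genes. Xbp1, the transcript that IRE1 splices, fell on all 3 days, by 0.66, 0.27 and 1.27, and stood at 71.9 ± 4.09 against 175 ± 17.3 on day 4. The files give gene totals, so its spliced and unspliced forms were not analysed here. Atf4, translated when PERK is active, was lower on day 1 (-0.39) and day 2 (-0.94) and higher on day 4 (0.59). Eif2ak3, which encodes PERK, fell by 0.62 on day 1 and rose by 1.00 on day 4. Nfya, a subunit of NF-Y, rose on day 4 by 1.29.

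Of 7 targets of the PERK and CHOP branch, 2 were lower on day 1 and 4 on day 2, and on day 4, 2 were lower and 5 higher. Ddit3 (CHOP) stood at 5.52 ± 0.783 at 0 µM and 45.9 ± 3.69 at 5 µM on day 4 and rose by 2.85 (adjusted p = 2.2e-11). Atf3 rose by 2.98 and Trib3 by 1.30 on that day, while on day 2 Trib3 was lower by 2.37. Asns, which makes asparagine, was lower throughout and fell by 2.45 on day 2. On day 4 Ddit3 and Atf3 were thus high in the same libraries in which Hspa5, Pdia4, Pdia6 and Sdf2l1 were low.

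Most relatives outside the compartment were higher at 5 µM on day 4. Of 14 cytosolic and mitochondrial relatives, 1 was lower on day 1, 2 were lower and 7 higher on day 2, and 2 were lower and 10 higher on day 4, with medians of -0.033, 0.26 and 0.44. Hsp90aa1, the cytosolic counterpart of Hsp90b1, stood at 669 ± 28.2 at 0 µM and 1315 ± 25.7 at 5 µM on day 4 and rose by 0.97 (adjusted p = 1.1e-12), where Hsp90b1 fell by 0.50. Trap1, the mitochondrial HSP90, fell by 1.03. Hspa1b rose by 2.88 and Hspa1a by 1.51, and since these 2 genes are near-identical the split of their reads is uncertain.

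Genes outside the 10 that carry the exact ERSE were also counted. Of 13 such genes that were tested, 3 were lower at 5 µM on day 1 (Creld2, Dnajc3 and Zfp57), 1 on day 2 (Zfp57) and 5 on day 4, with 1 higher on day 4, where 9.41%, 13.4% and 28.6% of all genes tested were called lower. The names were read off after the calls were known. Their median changes were -0.26, -0.058 and -0.27, against -0.0075, -0.013 and -0.0095 over all genes. Creld2 (-0.56, adjusted p = 0.029) and Dnajc3 (-0.54, adjusted p = 1.2e-04) on day 1 are themselves chaperone cofactors and belong to the list of 20 given above.

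Without both libraries with foreign transcripts, the genes lower on day 1 were 9 of the 20 folding enzymes, 3 of the 14 degradation genes, 9 of the 20 entry and glycosylation genes, 2 of the 11 collagen enzymes, 3 of the 12 sensors and factors, 2 of the 7 PERK and CHOP targets and 0 of the 14 relatives. Pdia5 (adjusted p = 0.05 after rounding, not below the threshold), Creld2 (0.057) and Zfp57 (0.061) then lost their day 1 calls. The share of all genes called lower is not given for this fit, so its counts cannot be set against it.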

How the data were processed

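The authors deposited 1 table with a column of signal for each library, called CPM in the labels. Per the labels' protocols, TRIzol was used to harvest RNA, and the library kit was TruSeq RNA from Illumina. How reads were aligned, counted and scaled, on which build and with or without strand, is not given in the sources used here. The deposited columns sum to between 892246 and 1079916, so each library was also scaled, and changes with time follow that scaling. Dividing each library by its smallest step gave whole reads (100% of non-zero values within 0.02 of a read) and depths of 18462092 to 26947109 reads.

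Values were tested as log2(value + 1) with limma 3.58.1 in R 4.3.3, with a mean per group, a mean-variance trend, all 30 libraries (20 residual degrees of freedom) and Benjamini-Hochberg adjustment over the 12946 genes that reached 1 scaled CPM in 3 libraries or more. The scale understates changes of low genes. edgeR 4.0.16 and DESeq2 1.42.0 on the recovered reads, other scalings, filters and pseudocounts, leaving out libraries and a replicate block were alternatives. P-values are two-sided. The script was tested on simulated data.

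The members and lists were chosen with earlier results of these data known. All 10 members were named, with up to 4 called genes of the largest change from each other list, the 6 genes outside the lists nearest the mean profile of the members, and each member's closest member. Promoters came from RefSeq on GRCm38.p6 and transcript lengths from GENCODE.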

Additional observations from a re-analysis of the deposited data

Results flagged for a closer look

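The effect of 5 µM on a chaperone transcript differed between days, by the test of the difference itself, in 7 cases. From day 1 to day 2 the log2 difference from 0 µM rose by 0.933 for Hspa5 (adjusted p = 2.1e-08), 0.713 for Calr (2.9e-06), 0.468 for Hsp90b1 (0.0044) and 0.38 for Pdia3 (0.02). From day 2 to day 4 it changed by -0.326 for Hspa5 (adjusted p = 0.013), -0.619 for Pdia4 (9.1e-04) and 0.362 for Dnajb11 (0.021). Of all genes tested, 5.80% passed from day 1 to day 2 and 23.7% from day 2 to day 4, in either direction. All p-values are from limma. Groups of 3 libraries are too small for a formal test of outlying samples within a group. Refits without single libraries are given with the results above.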

How the results depend on the processing

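The number of chaperones called, in either direction, stayed within 1.5 times the reported number in all 19 comparisons with a stricter filter on level, pseudocounts of 0.25 and 4, median-of-ratios scaling, plain CPM and without both libraries that held foreign transcripts. By direction, with plain CPM the 1 gene higher at 5 µM from day 2 to day 4 became 0, and the 6 lower at 0 µM from day 0 to day 4 became 9. The exceptions under the other settings concern 2 µM and day 1. At 2 µM on day 1 (reported: 5) the count was 0 with only the groups of the comparison, with 8 genes at an unadjusted p below 0.05, and 2 to 4 without single replicates. For 5 against 2 µM on day 1 (reported: 5) it was 3 with only the groups of the comparison. Fewer samples then estimate the spread. At 2 µM on day 4 (reported: 0, limma) it was 1 with no filter on level, 1 with edgeR and 3 with DESeq2 on the recovered reads, and the cause was not tested.

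Results that changed sign had not passed the test. Canx at 5 µM on day 2 was -0.0142 with plain CPM, and without single replicates it ran from -0.00406 to 0.0392. The change of the Sdf2l1 effect from day 1 to 2 ran from -0.653 to 0.0208 without single replicates. No strong pairing by replicate number was seen between the 0 and 5 µM libraries of a day. Same-numbered libraries had correlations of their deviations between -0.076 and 0.061, with 0 of 9 above 0.1. The labels do not say whether replicates were handled as matched sets. With the replicate number as a block the counts at 5 against 0 µM were 9, 7 and 7. None of the 134 single-chaperone results that were followed changed its call. These were all results that had passed, and every result in some of the comparisons. Those comparisons were 5 against 0 µM, 2 against 0 µM on day 1 and the tests of change. Sdf2l1, with as few as 44 reads in a library, was the member whose values depth limited most.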
